A study of Mus musculus with 4 samples.

Results

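Leukotrienes are lipid mediators that leukocytes make from arachidonic acid. The enzyme 5-lipoxygenase, helped by its membrane partner FLAP, converts arachidonic acid to the unstable epoxide leukotriene A4. This is turned either into leukotriene B4, which attracts neutrophils and other leukocytes, or into the cysteinyl leukotrienes, which constrict airways and make vessels leak, and which are known mediators of asthma. The 8 genes described here are the 4 of synthesis (Alox5, Alox5ap, Lta4h and Ltc4s) and 4 receptors (Cysltr1 and Cysltr2 for cysteinyl leukotrienes, Ltb4r1 and Ltb4r2 for leukotriene B4). They were taken as all non-control probes that carry one of these names on the array, which gave 9 of 39429 probes and 8 of 31131 genes. Each gene had 1 probe except Cysltr1, which had 2.

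RNA from mouse lung was hybridised to Agilent 1-colour arrays, 1 array for each of 4 groups, each with RNA pooled from 4 samples. Per the labels, the groups were Pla2g3-/- antigen challenged, Pla2g3-/- control, Pla2g3+/+ antigen challenged and Pla2g3+/+ control. Pla2g3 encodes a secreted phospholipase A2, an enzyme class that frees fatty acids such as arachidonic acid from membranes. Sensitisation was by injection of 10 µg ovalbumin with 1.3 mg alum on days 0 and 14, challenge was by 1% ovalbumin aerosol for 30 min on each of days 26, 27 and 28, and lungs were taken 48 h later. What the controls received, the strain, sex and age of the mice, and the deleted stretch of Pla2g3 are not given in the sources used here. With 1 array per group no pair of arrays has a spread between replicates, so pairs are compared without a p-value. In bulk lung RNA, fewer cells of a type and less RNA per cell cannot be told apart.

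The values come from 2 sources, the authors' value table and the scanner files, and the signals are given relative to the 75th percentile of their own array. Across probes the log2 levels of a table column and the scanner array of the same sample correlated at 0.911 to 0.919, whereas columns within the table correlated at 0.990 to 0.994 and arrays within the scanner files at 0.985 to 0.992. The sources are therefore described side by side and never averaged. Between 79.2% and 82.1% of spots were above background on each array of either source. Markers of several lung cell types differed between them, in both directions. Sums of 4 club cell markers were 175.5 to 184.3 in the table and 382.2 to 438.9 in the scanner files. Those of 6 ciliated cell markers were 7.73 to 10.6 and 34.6 to 43.1, and those of 9 macrophage markers 107.0 to 130.2 and 14.4 to 29.5, in the same order. The summed level of 8 alveolar epithelial markers was 312.2 to 331.8 in the table and 58.1 to 65.1 in the scanner files, where Rtkn2 was at background on 3 of the 4 arrays, and that of 7 endothelial markers was 69.6 to 73.2 in the table and 3.52 to 4.62 in the scanner files. The targeted gene Pla2g3 was 25.4-fold higher in the challenged array labelled Pla2g3-/- than in the one labelled Pla2g3+/+, and 22.1-fold higher among controls, in the table. In the scanner files it was higher by 14.9-fold and 9.15-fold. The arrays are for this reason called KO-labelled and WT-labelled, and each direction between genotypes rests on these labels.

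The probes are 60-base oligonucleotides, and the first 30 bases of each are shown, 5′ to 3′, because every value below is the brightness of one of these strands. Coordinates are those of the scanner files, on mm9.

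Alox5, chr6:116360326-116360385, minus strand, position 2530 of the transcript: tttatgcttcctccaattgcttgcatagag
Alox5ap, chr5:150099347-150099406, plus strand, position 577 of the transcript: agagacgcatcataacgcaatgccgcgaag
Lta4h, chr10:92947503-92947562, plus strand, position 1927 of the transcript: ggagagatctgaaagtggattaaggaactg
Ltc4s, chr11:50049972-50050031, minus strand, position 530 of the transcript: caaaacgctggggtgcccgcccccgaatcc
Cysltr1, main probe, chrX:103771856-103771915, minus strand, position 2911 of the transcript: tctgctggaccccttgggaaattgtgttta
Cysltr1, dimmer probe, chrX:103772044-103772103, minus strand, position 2723 of the transcript: cagcttggttgtgactaaaatatgatattc
Cysltr2, chr14:73429010-73429069, minus strand, position 1667 of the transcript: caggcatgctcatgaacattggtgtccacc
Ltb4r1, chr14:56387175-56387234, plus strand, position 1237 of the transcript: cctgacccacttctgtacctggaggagaac
Ltb4r2, chr14:56381569-56381628, plus strand, position 941 of the transcript: gcgctggaactacagccttggctttcttca

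All of these lie in transcribed sequence, as the positions within the RefSeq transcripts show. The Ltb4r1 and Ltb4r2 probes lie on the same strand with 5546 bases between them, and the Cysltr1 probes with 128 bases between them. All 8 genes were above background on all 4 arrays of both sources. The share of G and C in the probes ran from 35% (Lta4h and the dimmer Cysltr1 probe) to 55% (Ltb4r1).

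**Figure D1:**
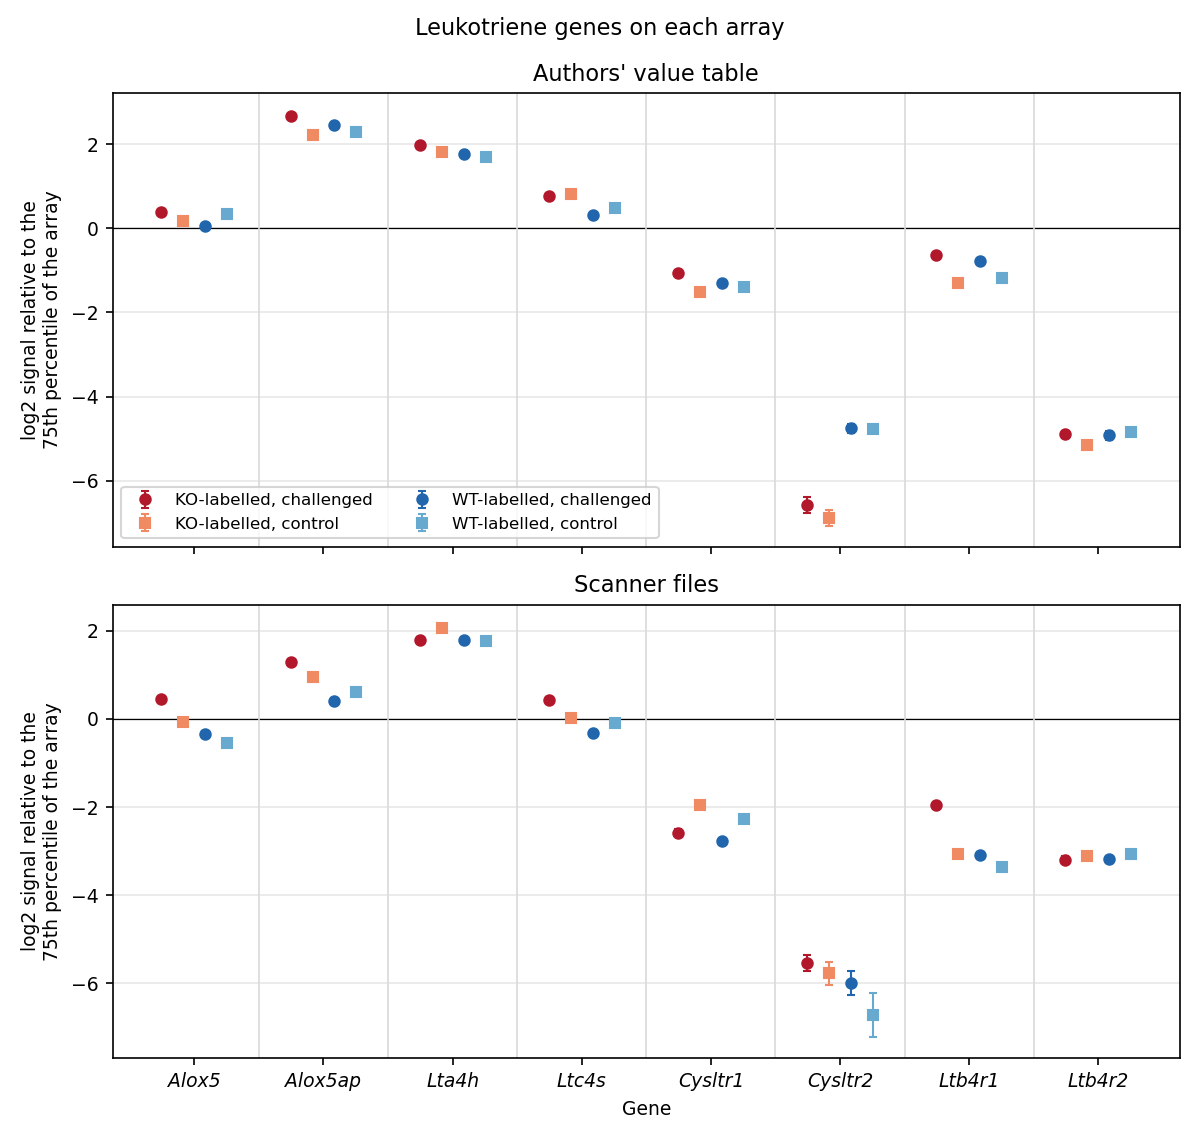
Signal of the 8 leukotriene genes on each array, in the authors' value table (top) and the scanner files (bottom), as log2 signal relative to the array's 75th percentile. Each point is 1 array and its bar is the median SD of repeated spots of equally bright probes on that array. Cysltr2 in the table is the gene whose KO-labelled points (log2 levels of -6.59 and -6.89) lie farthest from the WT-labelled ones (-4.76 and -4.77).

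The synthesis genes differed by less than 2-fold between any pair of arrays in the table. Alox5, which encodes 5-lipoxygenase, had relative signals of 1.32 and 1.13 in the KO-labelled challenged and control arrays, against 1.05 and 1.27 in the WT-labelled challenged and control arrays. It was thus 1.17-fold higher after challenge in the KO-labelled pair and 1.22-fold lower in the WT-labelled pair. Alox5ap, which encodes FLAP, the protein that presents arachidonic acid to 5-lipoxygenase, had 6.38 and 4.66 in the KO-labelled challenged and control arrays and 5.47 and 4.89 in the WT-labelled challenged and control arrays. The challenged array was the higher one in both pairs, by 1.37-fold in the KO-labelled and 1.12-fold in the WT-labelled pair. The error of these log2 differences, from the spread of repeated spots of probes of similar brightness, was 0.061 to 0.075, which covers how precisely spots were read and leaves out differences between animals.

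The 2 enzymes that share leukotriene A4 as substrate differed little with challenge in the table. Lta4h encodes the hydrolase that makes leukotriene B4, and had 3.98 and 3.52 in the KO-labelled challenged and control arrays, against 3.39 and 3.25 in the WT-labelled challenged and control arrays. The KO-labelled level was 1.17-fold higher among challenged arrays and 1.08-fold higher among controls. Ltc4s encodes the synthase of leukotriene C4, the first cysteinyl leukotriene, and had 1.70 and 1.76 in the KO-labelled challenged and control arrays, against 1.25 and 1.39 in the WT-labelled challenged and control arrays. It was 1.37-fold and 1.27-fold higher in the KO-labelled arrays of the same treatment, and slightly lower in the challenged than in the control array of each genotype label (by 0.05 and 0.16 on the log2 scale). limma's fit across all genes gave Ltc4s an averaged genotype difference of 0.40 (SE 0.08) with an adjusted p of 0.300, so it did not pass.

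The KO-labelled challenged array of the scanner files had the highest signal of Alox5, Alox5ap and Ltc4s. Alox5 had 1.37 and 0.955 in the KO-labelled challenged and control arrays, against 0.794 and 0.680 in the WT-labelled challenged and control arrays. Alox5ap had 2.46 and 1.95 in the KO-labelled arrays in the same order, against 1.33 and 1.53 in the WT-labelled arrays. Ltc4s had 1.36 and 1.02 in the KO-labelled challenged and control arrays, against 0.807 and 0.935 in the WT-labelled challenged and control arrays. Both KO-labelled levels lay above both WT-labelled ones for these 3 genes, narrowly so for Ltc4s (1.02 against 0.935). How many of all genes do so was not counted, so this order is not read as a property of these genes. Among challenged arrays the KO-labelled one was 1.73-fold higher for Alox5, 1.85-fold for Alox5ap and 1.68-fold for Ltc4s, and among controls 1.40-fold, 1.27-fold and 1.09-fold. Alox5ap and Ltc4s were higher after challenge in the KO-labelled pair (by 0.34 and 0.41 on the log2 scale) and lower in the WT-labelled pair (by 0.21 each).

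Markers of several leukocytes were higher in the KO-labelled than in the WT-labelled challenged array of the scanner files, but not all followed these 3 genes in the other comparisons. The summed level of 9 macrophage markers was 29.5 and 22.1 in the KO-labelled challenged and control arrays, against 17.8 and 14.4 in the WT-labelled challenged and control arrays, and all 9 were above background on every array. A few bright genes weigh in these sums, since the KO-labelled array was higher for 7 of 9 markers among challenged arrays (median log2 difference 0.71) and for 5 of 9 among controls (0.10). After challenge, 8 of 9 were higher in the KO-labelled pair and 4 of 9 in the WT-labelled pair. The 7 dendritic cell markers summed to 1.71 and 0.888 in the KO-labelled challenged and control arrays, against 0.945 and 1.30 in the WT-labelled ones, with Xcr1 at background on all 4. The KO-labelled array was higher for 7 of 7 among challenged arrays and for 0 of 7 among controls. Among challenged arrays the KO-labelled one also had higher sums of platelet markers (1.80 against 0.576, 5 of 5 higher), eosinophil markers (2.60 against 1.77, 5 of 9 higher, Epx and Prg3 at background in both and Prg2 in the WT-labelled one), T cell markers (5.96 against 4.37, 8 of 8 higher) and neutrophil markers (310.5 against 277.3, 9 of 12 higher). Of 10 mast cell and basophil markers, 4 were higher in the KO-labelled array among challenged arrays and 3 among controls (medians -0.18 and -0.04). Of these, Ms4a2 was at background on every array and Mcpt8 in the WT-labelled control. The part of these cell types in the Alox5, Alox5ap and Ltc4s differences was not tested.

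The KO-labelled control of the scanner files stood apart in T cell and immature thymocyte markers, but not in B cell markers. T cell markers summed to 5.96 and 31.6 in the KO-labelled challenged and control arrays, against 4.37 and 5.66 in the WT-labelled challenged and control arrays. Markers of immature thymocytes, a T cell precursor that a lung does not normally hold, summed to 1.00 and 17.1 in the KO-labelled challenged and control arrays, against 0.389 and 0.378 in the WT-labelled challenged and control arrays. All 8 T cell and all 6 thymocyte markers were also higher in the KO-labelled than in the WT-labelled challenged array. B cell markers summed to 2.21 and 2.11 in the KO-labelled challenged and control arrays. In the WT-labelled challenged and control arrays they summed to 1.88 and 5.03. Among controls, 0 of 6 B cell markers were higher in the KO-labelled array. The part of these lymphocytes in any scanner result was not tested. Lta4h did not follow the other synthesis genes, with 3.48 and 4.21 in the KO-labelled challenged and control arrays and 3.48 and 3.43 in the WT-labelled challenged and control arrays. Its highest level was in that KO-labelled control, 1.23-fold above the WT-labelled control, and its challenged arrays had nearly equal signals.

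Cysltr2 was the only one of the 8 genes that differed by 2-fold or more in the table. It encodes the second receptor of cysteinyl leukotrienes, found on vessels and leukocytes. Its relative signal was 0.0104 and 0.00842 in the KO-labelled challenged and control arrays, against 0.0369 and 0.0367 in the WT-labelled challenged and control arrays. It was 3.55-fold lower among challenged arrays (-1.83 on the log2 scale, spot error 0.22) and 4.36-fold lower among controls (-2.12, spot error 0.20), and the genotype labels did not overlap. Of all genes, 3.68% were at least 2-fold lower with the KO label among challenged arrays and 3.23% among controls, and 1.62% were lower by 2-fold in both. A count of 1 in 8 is not read as a property of the list. A difference at least as low as the smaller Cysltr2 difference was found in both treatments for 199 of 24905 genes (0.799%).

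The Cysltr2 probe was dim but measured in the table. Its signal was 2.73 and 2.67 times the background threshold in the KO-labelled challenged and control arrays, and 11.6 and 12.6 times in the WT-labelled challenged and control arrays. In limma's additive fit the averaged genotype difference was -1.98 (SE 0.12, adjusted p = 0.132), lower in KO-labelled arrays in 2 of 2 treatments, and 0 of 26069 genes (0%) passed an adjusted p of 0.05. With a variance trend in limma the adjusted p of Cysltr2 was 0.00665, and 4% of genes passed. With limma restricted to genes above background on all 4 arrays it was 0.0315, and 1.13% of genes passed. The residual spread of this fit is the disagreement between treatments, on 1 degree of freedom, so it says nothing of how much single animals vary. limma's printed SE and p combine this spread with the variance of all genes.

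**Figure D2:**
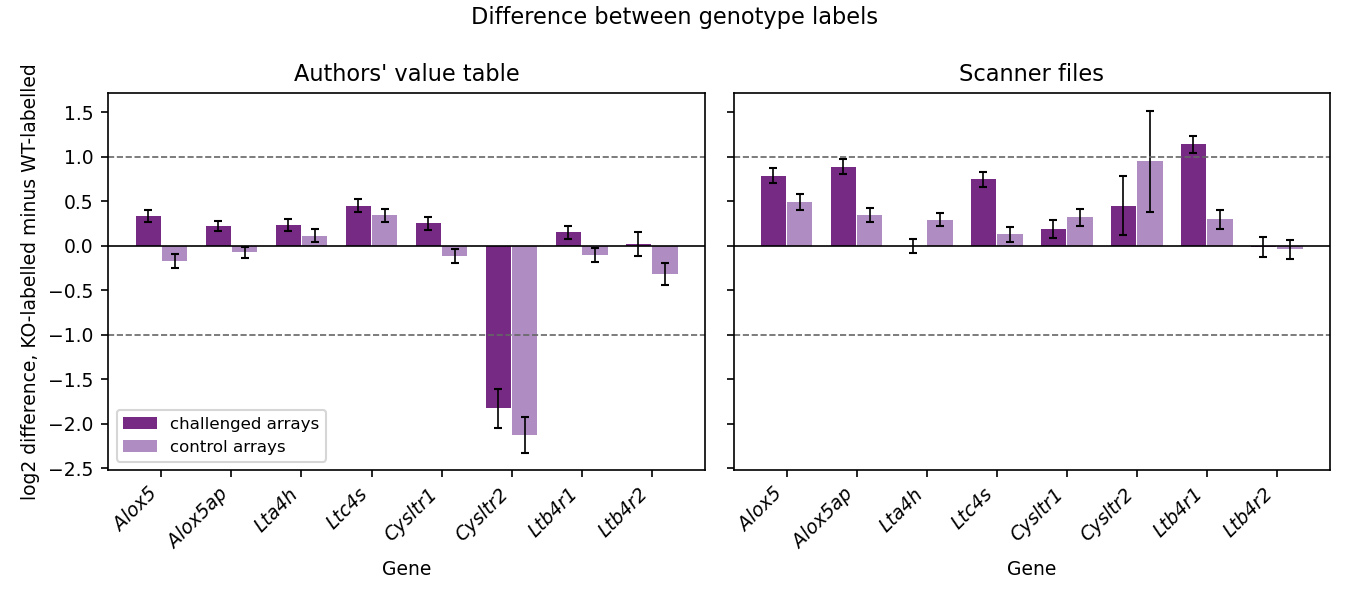
Log2 difference of KO-labelled minus WT-labelled arrays for the 8 genes, in challenged and in control arrays, in the authors' value table (left) and the scanner files (right). Bars start at 0, the lines on them are the error from repeated spots, and dashed lines mark 2-fold. Cysltr2 reaches -1.83 and -2.12 in the table and lies above 0, at 0.45 and 0.95, in the scanner files.

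Cysltr2 had the opposite direction in the scanner files. Its relative signal was 0.0214 and 0.0182 in the KO-labelled challenged and control arrays, against 0.0157 and 0.00943 in the WT-labelled challenged and control arrays. The KO-labelled arrays were 1.37-fold and 1.93-fold higher, with spot errors of 0.33 and 0.57 on the log2 scale for differences of 0.45 and 0.95, so the first is close to its error. With normexp background correction and quantile normalization they were 0.13 and 0.26. The normexp setting adds an offset of 50, more than the 18.7 to 42.4 that this probe had as scanner signal. Differences of so dim a probe become smaller under it in any case. The signal was 1.98 to 3.83 times the lowest one that Agilent's software called well above background. The averaged difference was 0.70 (SE 0.19) with a limma adjusted p of 0.457. Cysltr2 was also 1.66-fold higher in the challenged than in the control WT-labelled array of these files (0.73, spot error 0.57). With normexp and quantile normalization this difference was 0.18, where the same offset applies.

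Genes near Cysltr2 on chromosome 14 did not share its table difference. This set was chosen after the Cysltr2 values were seen, and holds the 5 nearest named genes above background on each side, up to 2382 kb away. Their differences between KO-labelled and WT-labelled arrays ran from -0.53 to 0.96 on the log2 scale in the table and from -0.30 to 1.02 in the scanner files. In either source 0 of 10 reached 2-fold in both treatments. Of all genes, 1.62% were at least 2-fold lower in both treatments of the table. A count of 0 in 10 is therefore not read as a property of this stretch. No such share is given for the scanner files. The markers of cell types that can carry the receptor were also read. In the table, endothelial markers summed to 71.1 and 73.2 in the KO-labelled challenged and control arrays, against 69.6 and 73.1 in the WT-labelled challenged and control arrays. The KO-labelled array was higher for 5 of these 7 markers among challenged arrays and for 6 of 7 among controls. Summed eosinophil markers were 3.02 and 1.75 in the KO-labelled challenged and control arrays, against 2.03 and 2.03 in the WT-labelled ones, where Epx was at background. Of these 9 markers, 8 were higher in the KO-labelled array among challenged arrays and 2 among controls. Macrophage markers were 130.2 and 123.6 in KO-labelled and 128.1 and 107.0 in WT-labelled challenged and control arrays. Mast cell and basophil markers, with Ms4a2 at background, were 12.2 and 12.5 against 9.28 and 9.67 in the same order. Dendritic cell markers were 8.22 and 7.01 in KO-labelled and 13.2 and 10.3 in WT-labelled challenged and control arrays, higher in the KO-labelled array for 2 and 1 of 7 genes. T cell markers were 8.15 and 7.05 in KO-labelled and 12.5 and 11.1 in WT-labelled challenged and control arrays, and B cell markers 11.2 and 13.7 against 14.3 and 18.6. All 8 T cell and all 6 B cell markers were lower in the KO-labelled array of each treatment. The part of any of these cell types, or of this stretch of chromosome 14, in the Cysltr2 difference was not tested.

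Cysltr1, the receptor blocked by the asthma drug montelukast, differed less. In the table its main probe had 0.482 and 0.353 in the KO-labelled challenged and control arrays, against 0.405 and 0.382 in the WT-labelled challenged and control arrays. It was 1.37-fold higher after challenge in the KO-labelled and 1.06-fold higher in the WT-labelled pair. The dimmer probe gave 1.40-fold higher in the KO-labelled pair and 1.03-fold lower in the WT-labelled pair, so the probes differ in sign only where both are close to 0. The main probe in the scanner files had 0.167 and 0.259 in the KO-labelled challenged and control arrays, against 0.147 and 0.208 in the WT-labelled challenged and control arrays. There it was lower after challenge under both labels, by 1.55-fold in the KO-labelled and 1.42-fold in the WT-labelled pair, and the dimmer probe gave 1.48-fold and 1.68-fold lower. The averaged challenge difference was -0.57 (SE 0.12) in these files, and limma's adjusted p was 0.514.

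Ltb4r1 was the gene with the largest averaged challenge difference of the 8 in both sources. It encodes BLT1, the high-affinity leukotriene B4 receptor of neutrophils, eosinophils and effector T cells. In the table it had 0.649 and 0.408 in the KO-labelled challenged and control arrays, against 0.583 and 0.438 in the WT-labelled challenged and control arrays. The challenged array was higher by 1.59-fold in the KO-labelled pair (0.67, spot error 0.08) and by 1.33-fold in the WT-labelled pair (0.41, spot error 0.08). The averaged difference was 0.54 (SE 0.11), with an adjusted p of 0.566 in limma's fit. KO-labelled and WT-labelled arrays of the same treatment differed by 0.15 among challenged arrays and by -0.10 among controls on the log2 scale.

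Ltb4r1 stood out in the KO-labelled challenged array of the scanner files. It had 0.258 and 0.120 in the KO-labelled challenged and control arrays, against 0.117 and 0.0976 in the WT-labelled challenged and control arrays. The KO-labelled challenged array was 2.16-fold above its own control (1.11, spot error 0.10) and 2.21-fold above the WT-labelled challenged array (1.14, spot error 0.09), while the WT-labelled pair differed by 1.20-fold. A 2-fold or greater excess was found for 4.37% of all genes in the first of these comparisons and 4.2% in the second. The comparisons share the KO-labelled challenged array and are not separate evidence. With normexp background correction and quantile normalization the differences were 0.97 and 0.96, just under 2-fold. The averaged challenge difference was 0.68 (SE 0.28) and limma's adjusted p was 0.522.

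The neutrophil markers moved with Ltb4r1 in both pairs of the scanner files. Their summed level was 310.5 and 231.4 in the KO-labelled challenged and control arrays, against 277.3 and 238.3 in the WT-labelled challenged and control arrays, and all 12 were above background on every array. In each pair 10 of the 12 were higher after challenge, with a median log2 difference of 2.26 in the KO-labelled and 1.47 in the WT-labelled pair, far more than the sums show. Between the challenged arrays 9 of 12 were higher in the KO-labelled one, with a median of 1.63. In the table the sums were 95.4 and 86.4 in the KO-labelled and 98.6 and 76.7 in the WT-labelled challenged and control arrays. There 6 of 12 were higher after challenge in the KO-labelled pair (median -0.004) and 10 of 12 in the WT-labelled pair (0.52). Neutrophil markers thus did not follow the larger KO-labelled difference of Ltb4r1 in the table. Of 9 eosinophil markers, 8 and 6 were higher after challenge in the KO-labelled and WT-labelled pairs of the table (medians 1.43 and 0.23). In the scanner files 4 and 5 were (medians -0.11 and 0.02), with Epx and Prg3 at background on every array. Of 8 T cell markers, 5 and 6 were higher after challenge in the table, and 0 and 0 in the scanner files. The part of these cell types in the Ltb4r1 differences was not tested.

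Ltb4r2, which encodes the low-affinity receptor BLT2, differed from its neighbour Ltb4r1. Its scanner signals were 0.109 and 0.115 in the KO-labelled challenged and control arrays, against 0.110 and 0.119 in the WT-labelled challenged and control arrays. These 4 levels lay within 0.13 of each other on the log2 scale, with challenge differences of -0.08 in the KO-labelled and -0.11 in the WT-labelled pair, close to their spot error of 0.11. In the table it had 0.0335 and 0.0281 in the KO-labelled challenged and control arrays, against 0.0331 and 0.0351 in the WT-labelled challenged and control arrays. The KO-labelled control was the lowest, 1.25-fold under the WT-labelled control (-0.32, spot error 0.12). limma gave averaged challenge differences of 0.08 (SE 0.13, adjusted p = 0.822) in the table and -0.10 (SE 0.11, adjusted p = 0.729) in the scanner files.

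**Figure D3:**
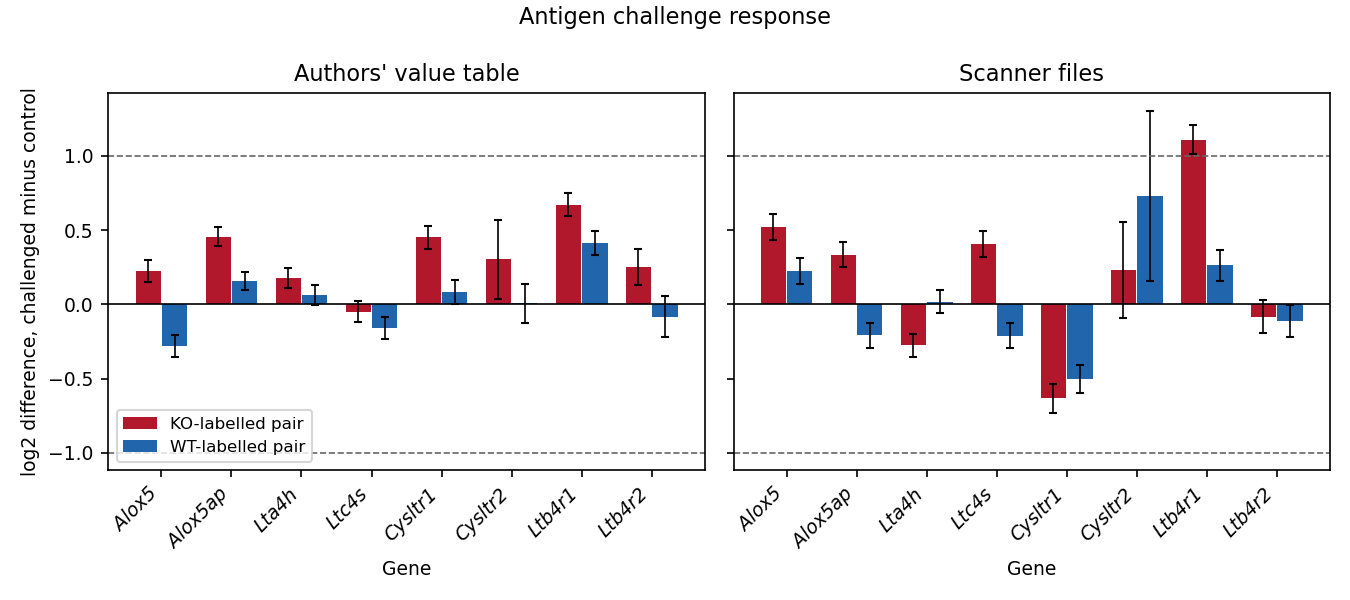
Log2 difference of challenged minus control arrays for the 8 genes, in the KO-labelled and the WT-labelled pair, in the authors' value table (left) and the scanner files (right). Bars start at 0, the lines on them are the error from repeated spots, and dashed lines mark 2-fold. Ltb4r1 lies above 0 in all 4 pairs and crosses 2-fold in 1 of them (1.11, KO-labelled, scanner files).

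Counted over the 8 genes, challenge gave few differences of 2-fold. None (0 of 8) reached it in either pair of the table, where 4.62% of all genes did in the KO-labelled and 3.45% in the WT-labelled pair. Ltb4r1 alone (1 of 8) reached it in the KO-labelled scanner pair (8.72%), and 0 of 8 in the WT-labelled one (4.43%). The median challenge difference of the 8 genes was 0.28 in the KO-labelled and 0.04 in the WT-labelled pair of the table, and 0.28 and -0.05 in the scanner files. The medians of all genes were 0.02, 0.01, -0.06 and -0.03 in the same order. The KO-labelled medians lie above those of all genes in both sources, and the WT-labelled ones close to them. How often 8 genes have such a median was not examined, so this is not read as a property of the list.

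Between genotype labels, 1 of the 8 genes reached 2-fold among challenged arrays (Cysltr2) and 1 among controls (Cysltr2) in the table, where 5.79% and 5.14% of all genes did so in either direction. In the scanner files 1 gene (Ltb4r1) did so among challenged arrays and 0 among controls, against 8.16% and 5.98% of all genes. The medians were 0.23 and -0.11 in challenged and control arrays of the table, where the medians of all genes were 0.007 and -0.002. They were 0.60 and 0.31 in those of the scanner files, where the medians of all genes were -0.06 and -0.03. Of the 8 genes, 6 were higher with the KO label among challenged scanner arrays and 7 among scanner controls, and the table had 7 and 2. The share of all genes above 0 was not counted and the 8 genes share the same arrays, so these counts and medians are not read as a property of the list. limma's additive fit passed 0 of the 8 genes for either averaged effect in either source, and 0 genes of all (0%). At an unadjusted p under 0.05 there was 1 of 8 for challenge in the table and 1 in the scanner files, and 2 and 2 for genotype, where 8.79%, 9.56%, 13.8% and 10.7% of all genes had such a p.

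The other genes of the pathway were taken from a list of 17, with enzymes that supply arachidonic acid, export or convert cysteinyl leukotrienes or degrade leukotriene B4, and further receptors. Of these, 15 were above background in the table and 14 or 15 in the scanner files, depending on the pair. None differed by 2-fold in the same direction in both genotype labels, or in both treatments, of a source. Pla2g4a, the cytosolic phospholipase A2 that frees arachidonic acid for 5-lipoxygenase, differed by 0.27 or less between compared arrays of the table and by 0.04 or less in the scanner files, on the log2 scale. With challenge, 0 of 15 reached 2-fold in either pair of the table, and between genotype labels 1 did, Cyp4f18 among controls. Of the list in the scanner files, 2 were higher by 2-fold after challenge in the KO-labelled pair, where 4.37% of all genes were, and 0 in the WT-labelled pair. Between genotype labels of these files 2 were higher among challenged arrays (4.2% of all genes) and 1 was lower among controls (2.38%).

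Cyp4f18, a cytochrome P450 that oxidises leukotriene B4 in mouse neutrophils, and Fpr2, a formyl peptide receptor that also binds lipoxin A4, were singled out after their values were seen, as were Pla2g4a and Gpr17. The log2 level of Fpr2 in the scanner files was -1.18 and -4.90 in the KO-labelled challenged and control arrays, against -3.82 and -4.56 in the WT-labelled challenged and control arrays. That of Cyp4f18 was 0.57 and -1.03 in the KO-labelled arrays, against -0.64 and -0.42 in the WT-labelled arrays, in the same order. Both were highest in the KO-labelled challenged array, as Ltb4r1 was, at 13.2-fold (Fpr2) and 3.04-fold (Cyp4f18) above the KO-labelled control and 6.25-fold and 2.32-fold above the WT-labelled challenged array. In the table Fpr2 differed by 0.33 or less between compared arrays. There Cyp4f18, read by another of its probes, was 1.98-fold higher after challenge in the KO-labelled pair and lower in KO-labelled arrays by 0.69 among challenged and 1.40 among control arrays, on the log2 scale. Gpr17, a receptor related to the cysteinyl leukotriene receptors, was above background in the WT-labelled control of the scanner files alone, and was at least 2.04-fold lower in the KO-labelled control.

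Sequence upstream of the transcription start was read for the members that the RefSeq promoter table (GRCm38.p6) holds, which were 5 of the 8: Alox5, Lta4h, Ltc4s, Cysltr2 and Ltb4r1. The 250 bases before the start are shown for Cysltr2, the gene that differed between labels in the table, and for Alox5, Ltc4s and Ltb4r1, which were highest in the same scanner array. Capitals mark GGGCGG, the GC box read by Sp1-type factors, and GAGGAA, a core sequence of PU.1, a factor of myeloid cells, each on either strand (CCGCCC and TTCCTC when reversed).

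Cysltr2, chr14:73049115-73049364, minus strand: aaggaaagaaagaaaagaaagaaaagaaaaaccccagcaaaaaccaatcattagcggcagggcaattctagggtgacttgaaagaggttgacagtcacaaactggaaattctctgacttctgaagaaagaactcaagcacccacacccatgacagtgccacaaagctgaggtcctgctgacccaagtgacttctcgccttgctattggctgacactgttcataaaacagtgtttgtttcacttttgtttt
Alox5, chr6:116461179-116461428, minus strand: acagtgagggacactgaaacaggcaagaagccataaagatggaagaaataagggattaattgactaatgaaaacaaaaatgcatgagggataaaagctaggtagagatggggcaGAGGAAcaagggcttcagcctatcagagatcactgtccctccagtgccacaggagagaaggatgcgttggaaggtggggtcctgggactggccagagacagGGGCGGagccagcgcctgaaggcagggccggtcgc
Ltc4s, chr11:50238533-50238782, minus strand: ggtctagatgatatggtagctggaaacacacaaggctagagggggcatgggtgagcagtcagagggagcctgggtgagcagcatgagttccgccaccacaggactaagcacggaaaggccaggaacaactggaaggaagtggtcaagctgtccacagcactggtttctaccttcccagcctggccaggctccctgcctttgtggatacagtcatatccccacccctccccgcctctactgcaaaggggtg
Ltb4r1, chr14:55765712-55765961, plus strand: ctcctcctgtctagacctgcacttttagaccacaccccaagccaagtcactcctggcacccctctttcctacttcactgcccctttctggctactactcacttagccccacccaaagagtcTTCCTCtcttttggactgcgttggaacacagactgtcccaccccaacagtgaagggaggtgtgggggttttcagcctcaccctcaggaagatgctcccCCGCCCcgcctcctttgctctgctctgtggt

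Alox5 held 1 GC box, starting 35 bases before the transcription start, and 1 PU.1 core, 136 bases before it. Ltb4r1 held 1 of each, 31 and 129 bases before the start. The windows of Cysltr2 and Ltc4s held neither, and that of Lta4h held 1 PU.1 core. Of 32851 promoter windows of the same length, 32.7% held a GC box and 23.3% a PU.1 core, and the motifs did not overlap in the windows shown. A match of letters is a description and does not show binding.

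For members whose levels spanned at least 2-fold over the 4 arrays of a source, the genes with the closest pattern were also found, by the root mean square difference of centred log2 levels over 4 arrays. For Cysltr2 in the table, which spanned 4.38-fold, these were Tmem212 (0.05), Gprc5d (0.07) and Trim69 (0.07) among 23887 genes. In the scanner files the closest were Nfkbid (0.05), Tmem178 (0.05) and Gatm (0.06) for Ltb4r1, which spanned 2.65-fold, and Adgrf3 (0.02) and Gtpbp3 (0.03) for Alox5, which spanned 2.02-fold. For Cysltr2 in those files they were Cracd (0.05), Nefh (0.05) and Slc35f2 (0.06) over a span of 2.27-fold. Among so many genes and over 4 arrays some patterns are close in any case. The lists of Cysltr2 in the 2 sources share no gene.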

How the data were processed

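Lung RNA was measured on 4 Agilent 1-colour arrays, 1 per labelled group, each from RNA pooled from 4 samples. The intensity values in the deposited scanner files were made with Agilent Feature Extraction 11.5.1.1, per the file headers and the submitters' processing notes, with spatial trends removed, background correction set to 0 and no normalization between arrays. All 4 arrays came from 1 slide and 1 scan. The authors' deposited value table holds a linear signal per spot with its 75th percentile near 1.00. Its processing steps are not stated in those sources, and 0 other columns of sample values were present.

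Scanner intensities were taken to log2 and each array's 75th percentile over non-control spots was subtracted. The table needed no scaling, so its log2 values were used directly. Spots of a probe were averaged, after leaving out those flagged uneven on an array (20 probes, none of a leukotriene gene), and each gene was read from whichever of its probes was brightest on average. Members were matched by the name in the scanner files. Of 39429 probes, 28324 were named through RefSeq transcripts. A scanner spot counted as above background by Agilent's flag, a table spot when over 5 times the median of 153 negative controls. Agilent's spot error is nearly the preset 10% of the signal, so the printed spot error is the median SD of repeated spots (at least 4 per probe) of probes within 1 log2 unit of the same brightness, unless named as Agilent's. This measure of error was chosen after the values were seen.

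Pairs of arrays were compared by a 2-fold rule, without a p-value. Averaged challenge and genotype effects were fitted with limma 3.58.1 in R 4.3.3 as an additive model over all genes above background on at least 1 array (26371 scanner, 26069 table), which leaves 1 residual degree of freedom, with Benjamini-Hochberg adjustment and a threshold of 0.05. The limma fit was first tested on simulated data. Named genes are the 8 members, and those of the pathway list at 2-fold in the same direction in both genotypes or both treatments, which none met. The 4 pathway genes described were chosen after their values were seen. Genes of like pattern are the closest 3, with unnamed probes left out of the text. The members, the 17-gene pathway list and the 13 marker lists were chosen with earlier results of these data known. Only marker lists beside which a result stands are described. Alternatives were quantile normalization, median scaling, normexp (offset 50), averaging all probes of a gene, fold rules of 1.5 and 3, stricter and no filters, and limma with a variance trend or robust eBayes. Python 3.11.15, numpy 2.4.6, pandas 2.3.3 and matplotlib 3.10.9 were used. The number of arrays limits the precision.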

Additional observations from a re-analysis of the deposited data

Results flagged for a closer look

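For 8 combinations of gene and source, the challenge responses of the KO-labelled and WT-labelled pairs, or the genotype differences of challenged and control arrays, had opposite signs. The difference was not tested, since 1 array per group leaves no spread. How many of all genes have such opposite signs was not counted, so this number is not read as a property of these genes. The value given is the KO-labelled response minus the WT-labelled response on the log2 scale. In the scanner files the responses were opposite for Alox5ap (0.54) and Ltc4s (0.62), whose KO-labelled responses were above 0. They were also opposite for Lta4h (-0.29), whose KO-labelled response was below 0. The WT-labelled response of Lta4h was only 0.02 (spot error 0.08). It was -0.02 with quantile normalization and -0.003 with normexp and quantile normalization, so its sign is not settled. In the table the responses were opposite for Alox5 (0.51) and Ltb4r2 (0.34). The WT-labelled response of Ltb4r2 there, -0.08, was smaller than its spot error of 0.14. The genotype difference alone changed sign with treatment for Alox5ap (0.29), Cysltr1 (0.37) and Ltb4r1 (0.26) in the table, above 0 among challenged arrays and below 0 among controls.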

How the results depend on the processing

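No paired analysis was possible because each group has 1 array, and for the same reason no array could be left out. Of the log2 differences of single genes, 186 of 192 in the scanner files and 159 of 160 in the table moved by less than the repeated-spot error under the alternatives, and 0 called ones changed sign. These counts overstate the stability. They include the stricter and no filters, which cannot change a log2 difference, and probe averaging, which can change only that of Cysltr1. With normexp and quantile normalization, 0 genes in place of 1 reached 2-fold in the scanner files for challenge in the KO-labelled pair and for genotype among challenged arrays, with Ltb4r1 at 0.97 and 0.96. The normexp offset of 50 makes differences of dim probes smaller, most of all those of Cysltr2. Quantile normalization alone brought Cysltr2 to 2-fold between scanner controls (1 gene in place of 0). In the scanner files the 1.5-fold rule gave 2 genes for the KO-labelled and 1 for the WT-labelled response (18.8% and 10.7% of all genes), and 4 and 1 for genotype among challenged and control arrays (16.8% and 13.4%). In the table it gave 1 for the KO-labelled response (10.8%). The 3-fold rule gave 0 for the scanner counts of 1. In the table, 1 gene (Cysltr2) passed for the averaged genotype effect with a variance trend and 1 with the filter on all 4 arrays, in place of 0, and 0 passed under the other 5 alternatives there, where the lowest limma adjusted p of the 8 genes was 0.113 to 0.179. With 1 array per group and dim Cysltr2 and Ltb4r2 probes, differences of these receptors are the least precisely read.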
